A study of Mus musculus with 5 samples.

Results

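The regions described here are the islands, broad stretches enriched for a histone mark, that lie in 5 clusters of KRAB zinc finger genes of the mouse genome (build mm9). The spans run from 175.0 to 178.0 Mb on chromosome 2, 145.0 to 147.5 Mb on chromosome 4, 5.0 to 7.7 Mb on chromosome 7, 62.0 to 68.0 Mb on chromosome 13 and 20.5 to 24.0 Mb on chromosome 17, 17.7 Mb in all. An island belonged to a cluster where its midpoint lay in the span, whatever its tags or width. Of 73415 islands in the 4 lists of the series, 744 met this rule. They were 196 H3K9me3 islands of untreated embryonic stem cells (ESCs), 272 H3K9me3 islands of L-proline-induced cells (PiCs), 127 H3K36me3 islands of ESCs and 149 H3K36me3 islands of PiCs. By cluster the 4 lists together gave 31 islands on chromosome 2, 156 on chromosome 4, 147 on chromosome 7, 211 on chromosome 13 and 199 on chromosome 17.

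All cells were of the wild-type TBV2 line (strain 129/SvP). They were seeded at low density without feeders, in medium with LIF and no non-essential amino acids, and kept for 5 days without L-proline (ESCs) or with it at 500 µM (PiCs). Each mark was mapped in each condition by chromatin immunoprecipitation and SOLiD sequencing of 1 library. A difference between conditions therefore has no replicate check, and no test between them could be made. The intervals below are 95% intervals that cover counting error over islands only, and neighbouring islands share their library and region. Those of coverage and covered length are the intervals of island number or of islands per Mb, scaled to the value. The spread of island widths is not in them. In the whole lists the islands held 1511058 tags (H3K9me3, ESCs) to 26055650 tags (H3K36me3, ESCs), and tags are compared only within a list.

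KRAB zinc finger proteins form a large family of DNA-binding repressors, many of which recognise retrotransposons. Their KRAB domain recruits the co-repressor TRIM28, which brings in the histone methyltransferase SETDB1, and SETDB1 writes H3K9me3, a mark of silenced chromatin. The genes themselves arose by tandem duplication and sit in clusters, and the bodies of such genes are known to carry H3K9me3, in some cases beside the H3K36me3 that SETD2 lays down during transcription. In a gene table of another build, GRCm38.p6, chromosome 4 holds a run of 17 neighbouring zinc finger genes that includes Zfp600, Rex2 and Zfp534, chromosome 13 a run of 25 that includes the regulators of sex-limited protein Rsl1 and Rslcan18, and chromosome 17 a run of 18 that includes Zfp54 and Zfp758. The longest run of chromosome 7 has 15 such genes and that of chromosome 2 has 4. Whether these runs lie in the spans was not tested. Coordinates were not carried from that build to mm9, so no island is assigned to a gene and the name of the clusters could not be checked against an annotation.

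H3K9me3 was denser in 3 of the 5 clusters than in the other sequence of their chromosomes, in both conditions. Over all 5 clusters, islands covered 3.68% of the sequence in ESCs and 6.75% in PiCs, against 2.08% and 3.52% of the other sequence of the same chromosomes. These are 1.77 and 1.92 times the level outside. The chromosome 7 cluster stood highest, at 6.99% in ESCs against 2.05% elsewhere on chromosome 7 and 13.7% in PiCs against 3.70%. The chromosome 4 cluster had 5.24% and 9.17% against 2.17% and 3.44%, and the chromosome 17 cluster 4.62% and 9.88% against 2.62% and 4.19%.

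By share of the whole span, the other clusters did not stand out for H3K9me3. In the chromosome 13 cluster coverage was 2.19% in ESCs against 1.98% elsewhere, and 3.47% in PiCs against 4.00%. In the chromosome 2 cluster it was 1.31% and 1.37%, against 1.81% and 2.81%. When each chromosome was divided into pieces as long as its cluster, the chromosome 7 cluster had the most H3K9me3 of 54 pieces in ESCs and the third most in PiCs. The chromosome 4 cluster ranked 3 of 60 and 2 of 60, the chromosome 17 cluster 6 of 25 and 3 of 25, the chromosome 13 cluster 6 of 18 and 9 of 18, and the chromosome 2 cluster 30 of 59 and 46 of 59.

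**Figure D1:**
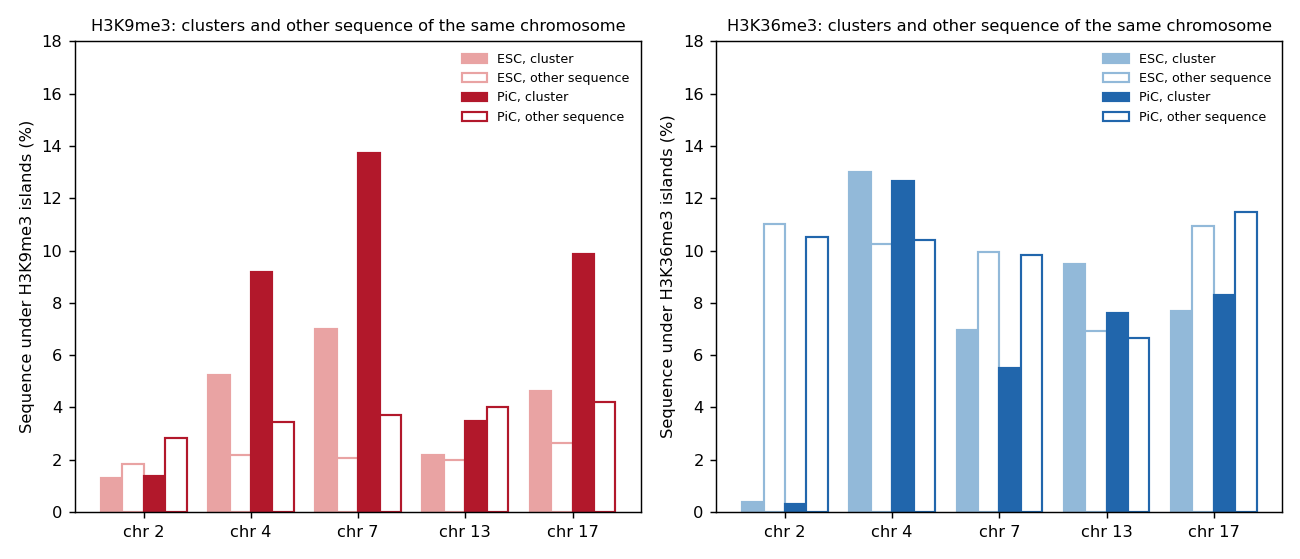
Percent of sequence under H3K9me3 islands (left, red) and H3K36me3 islands (right, blue) in each cluster (filled bars) and in the other sequence of its chromosome (open bars), in ESCs (pale) and PiCs (dark), with 1 library per bar. H3K9me3 is above the other sequence on chromosomes 4, 7 and 17 in both conditions, up to 13.7% on chromosome 7 in PiCs, and H3K36me3 is above it on chromosomes 4 and 13.

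H3K36me3, the mark of transcribed gene bodies, lay in these clusters in short islands. Over all 5 it covered 7.70% of the sequence in ESCs and 6.90% in PiCs, less than the 9.92% and 9.84% of the other sequence. Yet the pooled clusters held more H3K36me3 islands per Mb than the other sequence, 7.18 against 5.37 in ESCs (1.34 times, interval 1.11 to 1.59) and 8.42 against 7.13 in PiCs (1.18 times, 0.999 to 1.39). The excess lay on chromosomes 4 (2.3 and 2.0 times) and 13 (2.2 and 1.7 times). On chromosomes 7 (1.1 and 0.81) and 17 (1.22 and 1.30) the intervals included 1. The chromosome 2 cluster was below its chromosome (0.18 and 0.091). The median island was 7.8 kb wide in ESCs against 12.6 kb outside, and for PiCs the widths were 5.8 kb against 8.8 kb.

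The clusters on chromosomes 4 and 13 had H3K36me3 above the rest of their chromosome, on chromosome 4 through the ends of the span. Of these coverage ratios over the whole span, only that of chromosome 13 in ESCs had an interval above 1. The chromosome 4 cluster was covered to 13.0% in ESCs and 12.7% in PiCs, against 10.2% and 10.4%, which is 1.27 and 1.22 times as much. With the span moved in by 0.25 Mb at both ends these became 0.693 (0.404 to 1.11) and 0.660 times (0.414 to 0.9995), so the direction turned. The chromosome 13 cluster was covered to 9.48% and 7.62%, against 6.93% and 6.65%, which is 1.37 times (1.01 to 1.81) in ESCs and 1.15 times in PiCs. The ESC ratio was 1.44 (1.04 to 1.93) with the span moved in by 0.25 Mb. With the span moved out by 0.25 Mb it was 1.26 (0.927 to 1.67), and with the 50% of islands that had the most tags 1.04 (0.571 to 1.75). The chromosome 7 cluster had 6.96% and 5.50% against 9.94% and 9.83%, and the chromosome 17 cluster 7.69% and 8.29% against 10.9% and 11.5%. The chromosome 2 cluster was almost bare, with 3 H3K36me3 islands in ESCs and 2 in PiCs that covered 0.393% and 0.313% against 11.0% and 10.5%.

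The clusters on chromosomes 2 and 13 contained long stretches with no island of either mark in either condition. The longest, on chromosome 2 from 175000401 to 176871200, spanned 1871 kb, and no stretch elsewhere on that chromosome between its first and last island was as long (the longest was 975.0 kb). On chromosome 13 a stretch of 877.0 kb from 65438201 to 66315200 was likewise longer than any other of its chromosome, where the next reached 863.2 kb. Whether reads can be mapped to these stretches was not tested. Stretches of 100 kb or longer without an island took up 82.7% of the chromosome 2 cluster, against 54.2% of the rest of its chromosome. In the other 4 clusters they took up less than outside, 48.6% against 51.5% on chromosome 4, 30.1% against 55.4% on chromosome 7, 48.3% against 54.9% on chromosome 13 and 23.5% against 46.4% on chromosome 17. With such stretches left out inside and outside the clusters, the H3K9me3 coverage of the chromosome 2 cluster was above that of the rest, 1.91 times (0.985 to 3.33) in ESCs instead of 0.720 times and 1.29 times (0.706 to 2.17) in PiCs instead of 0.488 times. On the same basis chromosome 17 had 1.23 times (0.909 to 1.63) and 1.65 times (1.32 to 2.04), chromosome 7 2.13 and 2.33, chromosome 4 2.28 and 2.52, and chromosome 13 0.980 and 0.769. The stretches were defined by the absence of islands in these lists, so leaving them out raises coverage most where they take up most of the span. In ESCs the intervals of chromosomes 2 and 17 overlap and include 1, so they give no order between these clusters.

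**Figure D2:**
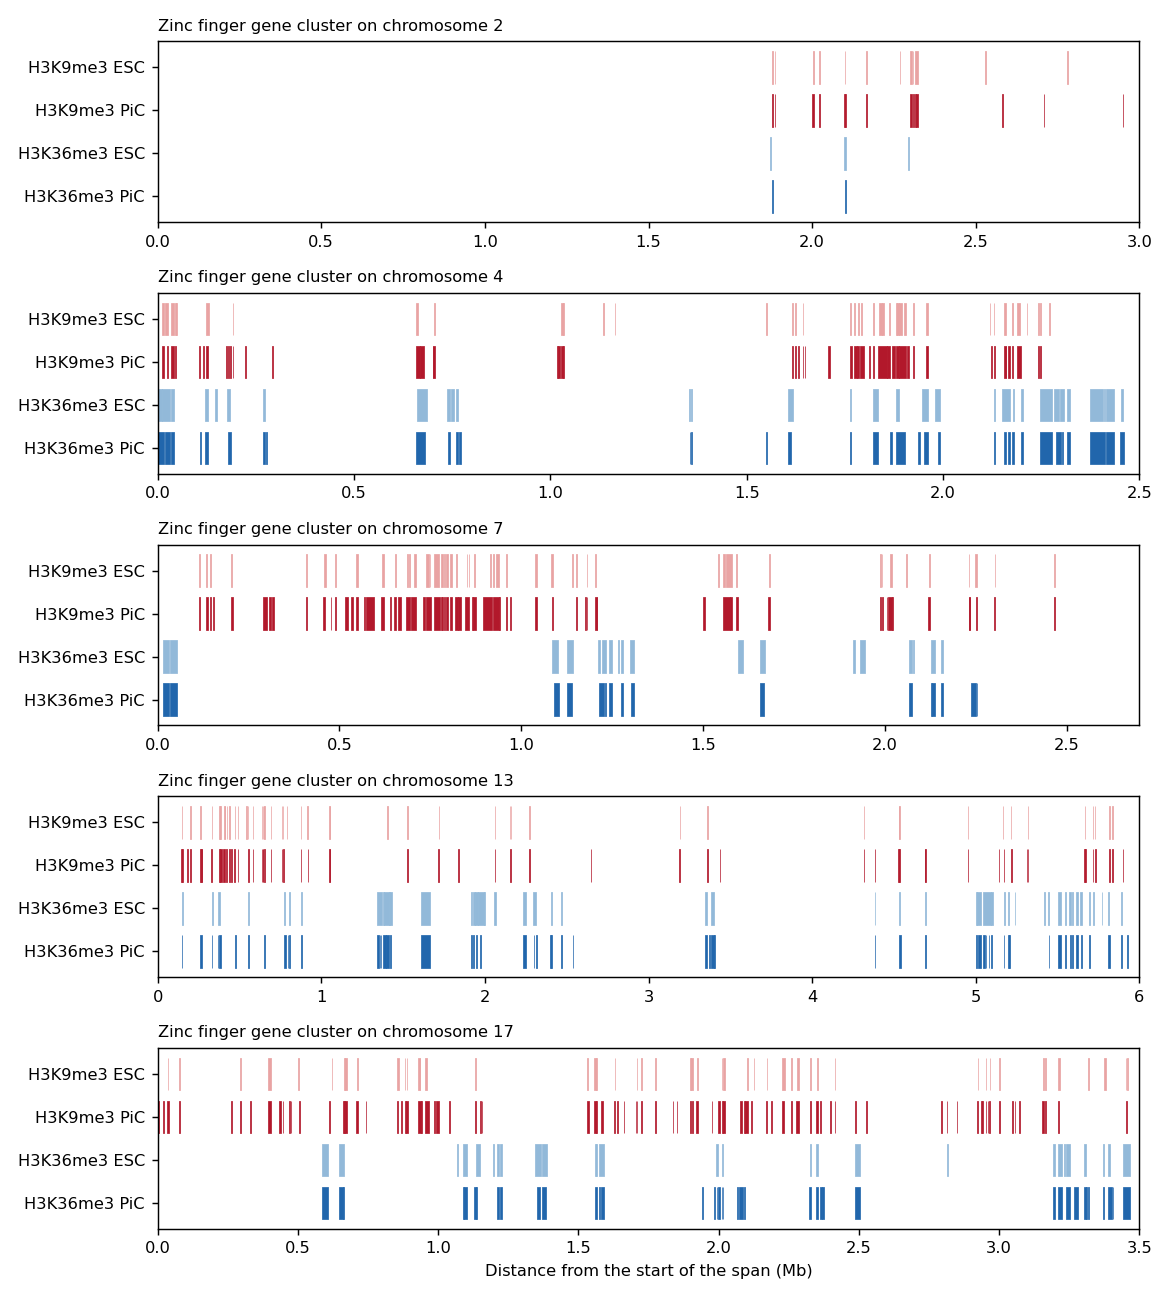
Position of all 744 islands of the clusters, 1 panel per cluster and 1 row per list, along the distance in Mb from the start of the span. H3K9me3 of the chromosome 7 cluster is packed between about 0.5 and 1 Mb, where H3K36me3 islands are missing, the rows of both marks interleave on chromosome 4, and the left part of the chromosome 2 panel is empty.

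The chromosome 7 cluster held a stretch with H3K9me3 alone and pieces with both marks. From 5.5 to 5.75 Mb H3K9me3 covered 15.0% in ESCs and 41.9% in PiCs, and from 5.75 to 6 Mb 20.8% and 48.6%, with no H3K36me3 island in either list. In 5 of the 11 pieces of 250 kb or less of this cluster both marks were present, in each condition. From 6 to 6.25 Mb, for example, H3K9me3 covered 7.6% in ESCs and 8.8% in PiCs, and H3K36me3 23.8% and 20.7%. The stretch without H3K36me3 contains the widest PiC H3K9me3 island of all clusters, 25.0 kb from 5895001 to 5920000 with 33.7 tags per kb. ESC H3K9me3 covered 9.60% of that island. Only 10 islands of the PiC H3K9me3 list were wider. In ESCs the widest H3K9me3 island of the chromosome 7 cluster lay apart, from 6563401 to 6578600 (15.2 kb, 27.7 tags per kb), and a PiC island from 6554201 to 6572800 (18.6 kb, 38.0 tags per kb) met it. The H3K36me3 island of this cluster with the most tags lay near the start of the span, from 5014601 to 5031800, with the same edges in both lists. It had 298.4 tags per kb in ESCs (percentile 98.2 of its list) and for PiCs 135.8 (percentile 97.0).

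In the chromosome 4 cluster the marks interleaved, and its H3K9me3 islands were rich in tags. Of its 40 ESC H3K9me3 islands, 13 (32.5%) belonged to the tenth of the whole list with the most tags per kb, and of its 50 PiC islands 16 (32.0%), against 8.51% and 7.99% of the islands elsewhere on chromosome 4. The island with the most tags ran from 145033801 to 145041000 in ESCs (126.9 tags per kb) and from 145033401 to 145041000 in PiCs (198.8 tags per kb), at percentile 99.8 of each list. H3K36me3 also covered it, entirely in ESCs and over 92.1% in PiCs. The widest H3K9me3 island of the cluster, 22.2 kb from 146834601 to 146856800 in PiCs, had no H3K36me3 and was under ESC H3K9me3 over 52.3% of its length. The widest H3K36me3 island, 33.0 kb from 147374601 to 147407600 in ESCs and 37.0 kb from 147375001 to 147412000 in PiCs, carried no H3K9me3 in either condition.

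The clusters on chromosomes 13 and 17 each joined stretches of different make-up. On chromosome 13 the 250 kb from 62.25 to 62.5 Mb held 10 ESC and 12 PiC islands of H3K9me3, which covered 15.9% and 26.2%. It contains the widest H3K9me3 island of this cluster, 14.4 kb from 62400401 to 62414800 in PiCs. The widest H3K36me3 island of all clusters lay further on, from 63606801 to 63665400 in ESCs (58.6 kb, 199.4 tags per kb) and from 63609201 to 63666600 in PiCs (57.4 kb, 87.3 tags per kb), with no H3K9me3. On chromosome 17 the widest H3K9me3 island spanned 15.0 kb from 21452601 to 21467600 in PiCs, and ESC H3K9me3 covered 50.7% of it. The H3K36me3 island of this cluster with the most tags, from 23941201 to 23965200 in ESCs (366.8 tags per kb) and to 23964600 in PiCs (193.2), was covered by H3K9me3 over 25.0% in ESCs and 8.55% in PiCs.

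Between the conditions, H3K9me3 covered more of the pooled clusters in PiCs, by nearly the same factor as it did outside them. Single clusters lay above or below the ratios of their chromosomes, each within counting error. PiCs had 272 H3K9me3 islands in the clusters and ESCs 196, a ratio of 1.39 (interval 1.15 to 1.68), and the other sequence had a ratio of 1.37 (1.32 to 1.42). Islands covered 652.0 kb of the clusters in ESCs and 1195 kb in PiCs, which is 1.83 times as much, against 1.69 times outside. The PiC list of this mark is also longer over the whole genome, with 25867 islands to 18464. When it was reduced to the length of the ESC list by tags, the clusters held 203 PiC islands, and their number ratio was 1.04 (0.847 to 1.27). The other sequence then held 4569 PiC islands to 4680 of ESCs. The covered length of the clusters was still 1.65 times that of ESCs (1.35 to 2.02). This cut keeps the PiC islands with the most tags, and its part in the covered length was not tested. As a share of all tags in the list the clusters held 1.33% in ESCs and 1.36% for PiCs, whereas the other sequence held 25.2% and 23.9%. No interval is given for these shares, since the tags of an island are not independent.

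The chromosome 17 cluster differed most between the H3K9me3 lists, with 48 ESC and 85 PiC islands (ratio 1.77, 1.23 to 2.58) and a covered length of 161.6 kb and 345.8 kb (ratio 2.14). The rest of chromosome 17 had ratios of 1.39 (1.26 to 1.54) and 1.60, and the intervals of the number ratios overlap. For the chromosome 7 cluster the number ratio was 1.35 (0.918 to 2.01) and the length ratio 1.96, for chromosome 4 1.25 (0.808 to 1.94) and 1.75, and for chromosome 13 1.21 (0.810 to 1.81) and 1.58. The rest of these chromosomes had length ratios of 1.80, 1.58 and 2.02. The chromosome 2 cluster had 12 and 14 H3K9me3 islands over 39.2 and 41.2 kb, a length ratio of 1.05 against 1.55 on the rest. The length ratio was thus above that of its chromosome on chromosomes 4, 7 and 17, and below it on chromosomes 2 and 13. None of these differences went beyond counting error, with the interval of island number scaled to the length ratio.

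For H3K36me3 the clusters were covered over a slightly shorter length in PiCs, and the interval of the ratio includes 1. Its ESC islands covered 1362 kb and its PiC islands 1222 kb, which gives a ratio of 0.897 (0.703 to 1.15), where the other sequence gave 0.991. With the 50% of islands that had the most tags the ratio was 1.04 (0.675 to 1.63). Their numbers were 127 and 149, a ratio of 1.17 (0.920 to 1.498) against 1.33 (1.27 to 1.39) outside. With H3K36me3 lists of equal size, which sets the number ratio of the whole lists to 1, the clusters had 95 PiC islands to 127 of ESCs. Their number ratio was 0.748 (0.567 to 0.984) and their ratio of covered length 0.769 (0.583 to 1.01). The other sequence had 3582 PiC islands to 3608 of ESCs at this setting. With the whole lists the length ratios were 0.797 on chromosome 2, 0.974 on chromosome 4, 0.790 on chromosome 7, 0.804 on chromosome 13 and 1.08 on chromosome 17. On chromosome 13 the ESC islands covered 568.6 kb and the PiC islands 457.2 kb, and of 36 islands that met exactly 1 island of the other list, 28 were narrower in PiCs and 8 wider. Over the 5 clusters 59 of 87 such islands were narrower in PiCs and 24 wider, with a median width ratio of 0.909, whereas outside it was 1, with 1152 narrower and 1026 wider of 2337.

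**Figure D3:**
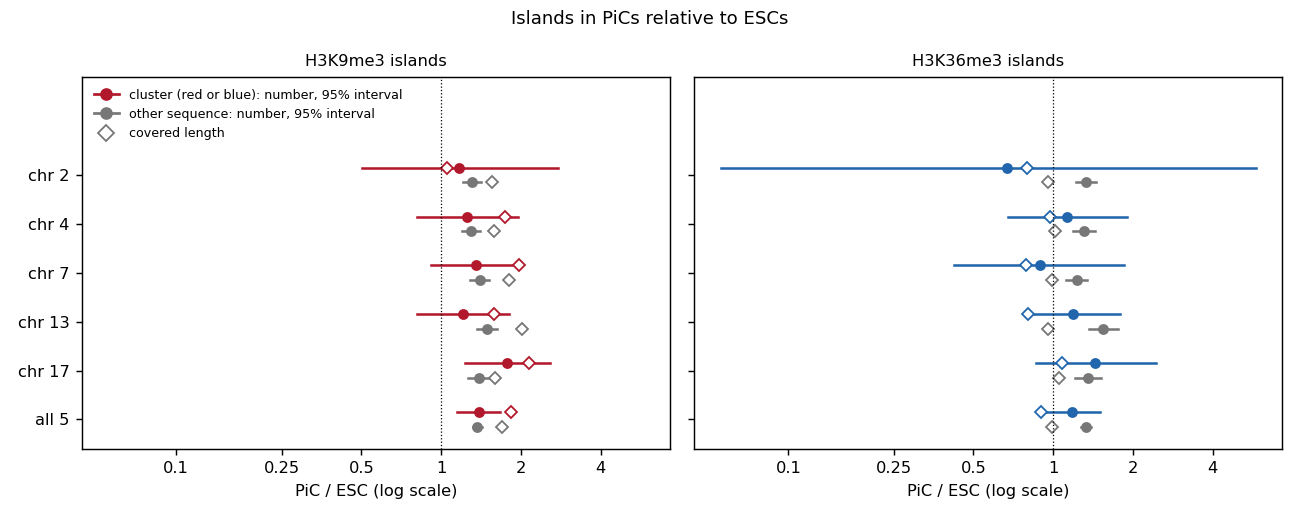
Ratio of PiCs to ESCs (log axis) for the number of islands (filled circles with 95% exact intervals) and for covered length (open diamonds), per cluster (colour) and in the other sequence of the same chromosomes (grey). H3K9me3 number ratios run from 1.17 on chromosome 2 to 1.77 on chromosome 17, and the interval of each cluster includes or overlaps that of the other sequence of its chromosome.

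H3K9me3 islands of ESCs were found again in PiCs more often inside the pooled clusters than outside. Of the 196 ESC islands, 174 (88.8%, interval 83.5 to 92.8) overlapped a PiC H3K9me3 island, where the share outside was 79%. For the 272 PiC islands the share was close to that outside, with 166 (61.0%, 55.0 to 66.9) on an ESC island against 55.7%. The ESC shares were 75.0% on chromosome 2, 82.5% on chromosome 4, 93.8% on chromosome 7, 91.7% on chromosome 13 and 89.6% on chromosome 17. The rest of these chromosomes had 76.1%, 76.0%, 79.65%, 88.9% and 75.35%, in the same order. The interval of the cluster lay above that share on chromosomes 7 (82.8 to 98.7) and 17 (77.3 to 96.5). On chromosomes 2, 4 and 13 it included that share. Among 147 pairs of H3K9me3 islands that met only each other, 97 were wider in PiCs, 34 narrower and 16 equal, and 13 had identical edges. Outside, 2343 of 3259 such pairs were wider in PiCs and 626 narrower. The median width ratio was 1.28 in the clusters and 1.33 outside.

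Pooled over the clusters, H3K9me3 islands far from any of the other condition were scarcer than outside. The clusters also held more H3K9me3 islands per Mb, 11.1 against 6.96 in ESCs and 15.4 against 9.53 in PiCs. The part of this density in the shares within 10 kb and in the overlap between conditions was not tested. Of the ESC islands 15 (7.65%, 4.35 to 12.3) had no PiC H3K9me3 island within 10 kb, against 17.3% outside, although on chromosome 2 they were 3 of 12 (25.0%, 5.49 to 57.2). Of the PiC islands 57 (21.0%, 16.3 to 26.3) had no ESC island within 10 kb, against 32.6% outside. On chromosome 17 these were 31 of 85 (36.5%, 26.3 to 47.6), near the level outside, and in the other 4 clusters 26 of 187 (13.9%, 9.28 to 19.7). The widest, on chromosome 7 from 5574401 to 5593800, spanned 19.4 kb at 30.9 tags per kb, and lay in the H3K9me3-rich stretch described above. Those of the other clusters were at most 9.4 kb wide, on chromosome 17 from 20496401 to 20505800.

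For H3K36me3 the shared part was a little smaller inside the clusters in ESCs. A PiC island lay on 107 of the ESC islands (84.3%, 76.7 to 90.1), against 90.3% outside. An ESC island lay on 115 of the PiC islands (77.2%, 69.6 to 83.7), against 80.7%, which is within the interval. With no island within 10 kb there were 14 of the ESC islands (11.0%, 6.16 to 17.8), against 6.13% outside, and 16 of the PiC islands (10.7%, 6.26 to 16.8), against 11.6%. The widest of them were a 14.4 kb ESC island on chromosome 7 from 6596401 to 6610800 and a 14.2 kb PiC island on chromosome 17 from 23765201 to 23779400, both without H3K9me3 in either condition. On chromosome 13 a PiC island of 11.2 kb from 62259401 to 62270600 was under PiC H3K9me3 over 69.6% of its length, and ESC H3K9me3 covered 35.7% of the same stretch.

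The 2 marks met on the same sequence more often in the clusters than outside. Of 196 ESC islands of H3K9me3, 36 (18.4%, interval 13.2 to 24.5) shared bases with H3K36me3, against 8.06% outside. In PiCs 57 of the 272 (21.0%, 16.3 to 26.3) did, against 6.54%. Counted from the other mark, 31 of 127 ESC H3K36me3 islands (24.4%, 17.2 to 32.8) and 47 of 149 PiC islands (31.5%, 24.2 to 39.7) touched H3K9me3, against 9.37% and 8.31%. The H3K9me3 islands had nearly the same median width inside and outside, 2.8 and 2.6 kb in ESCs and 3.2 and 3.0 kb in PiCs. H3K36me3 covered less of the clusters when pooled, but more on chromosomes 4 and 13, there within counting error except in ESCs on chromosome 13. Its islands were more numerous per Mb when pooled, by most on chromosomes 4 and 13. The part of these differences in the overlap was not tested. A shared stretch in bulk chromatin can hold both marks in the same cells or each mark in different cells or alleles, and these cannot be told apart.

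The chromosome 4 cluster carried much of this overlap. There 16 of 40 ESC H3K9me3 islands (40.0%, 24.9 to 56.7) and 20 of 50 PiC islands (40.0%, 26.4 to 54.8) touched H3K36me3, against 8.51% and 5.73% on the rest of the chromosome. H3K36me3 covered 13.0% of the cluster but 40.5% of its H3K9me3 bases in ESCs, and 12.7% and 40.4% in PiCs. On chromosome 13 the islands that touched were 9 of 48 (18.8%, 8.95 to 32.6) and 17 of 58 (29.3%, 18.1 to 42.7), against 3.49% and 5.56%. On chromosome 17 they were 8 of 48 (16.7%, 7.48 to 30.2) and 16 of 85 (18.8%, 11.2 to 28.8), against 11.3% and 8.25%. The chromosome 7 cluster, the richest in H3K9me3, had 2 of 48 (4.17%, 0.509 to 14.2) and 1 of 65 (1.54%, 0.0389 to 8.28), against 8.74% and 6.83%, with intervals that reach those levels. On chromosome 2 there were 1 of 12 and 3 of 14. Without the chromosome 4 cluster the pooled share was 12.8% in ESCs (8.01 to 19.1), against 7.92% of the other sequence of these 4 chromosomes, and for PiCs 16.7% (12.0 to 22.2), against 6.77%.

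**Figure D4:**
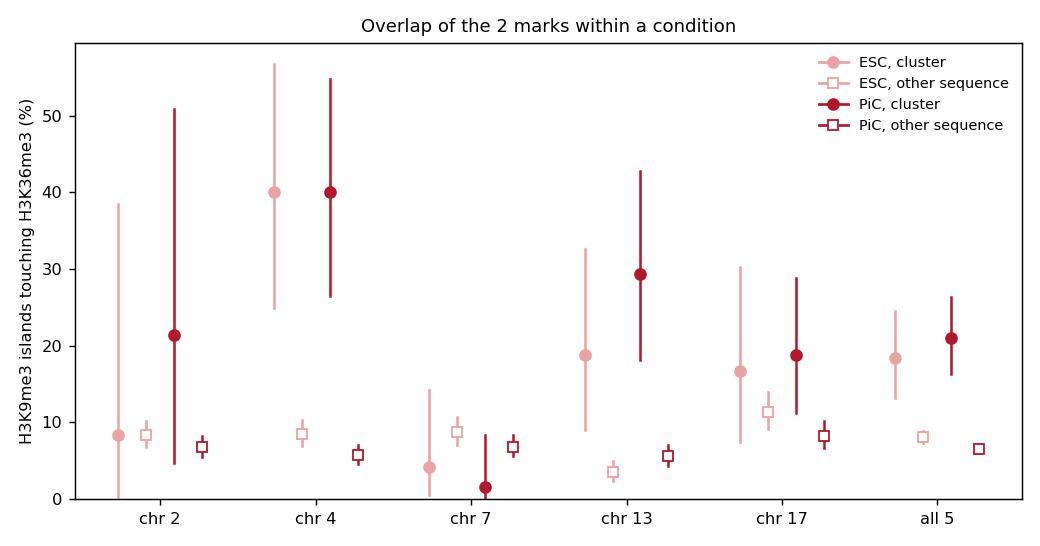
Percent of H3K9me3 islands that touch an H3K36me3 island of the same condition, in each cluster (circles) and in the other sequence of its chromosome (squares), for ESCs (pale) and PiCs (dark), with 95% exact intervals. The chromosome 4 cluster stands at 40.0% in both conditions, and the chromosome 7 cluster at 4.17% and 1.54%.

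Sequence under both marks amounted to 104.8 kb of the clusters in ESCs and 206.0 kb in PiCs, in 36 and 57 stretches. Chromosome 4 had 53.0 kb of it in ESCs and 92.6 kb in PiCs, chromosome 13 24.0 and 51.2 kb, chromosome 17 20.4 and 54.4 kb, chromosome 7 5.8 and 1.2 kb, and chromosome 2 1.6 and 6.6 kb. The widest stretch of ESCs, 8.4 kb on chromosome 4 from 145018601 to 145027000, was under H3K36me3 over its whole length in PiCs and under H3K9me3 over 38.1%. The widest of PiCs, 15.8 kb on chromosome 4 from 146888001 to 146903800, had H3K9me3 over 64.6% in ESCs and no H3K36me3. On chromosome 17 the widest was an 8.4 kb stretch of PiCs from 22080801 to 22089200, which was under H3K36me3 alone in ESCs. On chromosome 13 it was a 6.2 kb stretch of PiCs from 62380801 to 62387000, under H3K9me3 over 80.7% and H3K36me3 over 22.6% in ESCs.

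Stretches with both marks in ESCs mostly had both in PiCs, more often than outside the clusters, while the reverse share did not differ from that outside beyond counting error. Of the 36 ESC stretches 29 (80.6%, interval 64.0 to 91.8) overlapped a stretch with both marks in PiCs, and outside 173 of 383 did (45.2%, 40.1 to 50.3). Without the chromosome 4 cluster 15 of 20 did (75.0%, 50.9 to 91.3). Of the 57 PiC stretches 28 (49.1%, 35.6 to 62.7) overlapped one with both marks in ESCs, against 158 of 428 outside (36.9%, 32.3 to 41.7). Outside, 188 of the 210 remaining stretches kept only H3K36me3 in PiCs. In the clusters 4 of the 7 remaining did so, and 3 kept only H3K9me3. One of the 4, on chromosome 13 from 63401601 to 63406400, was an H3K9me3 island of 12.3 tags per kb, at percentile 2.00 of its list, inside H3K36me3 in both conditions.

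By bases, 67.2% of the ESC sequence under both marks in the clusters had both in PiCs, 21.8% had H3K36me3 alone, 7.06% H3K9me3 alone and 4.01% neither. Outside the clusters 36.8% had both and 57.2% H3K36me3 alone. Of the ESC sequence under H3K9me3 alone, 79.3% was under H3K9me3 alone and 7.46% under both marks in PiCs, against 70.1% and 3.38% outside. Of the ESC sequence under H3K36me3 alone, 64.6% was so in PiCs and 30.1% had neither mark, against 83.8% and 15.5% outside. A further 4.83% of it was under both marks in PiCs, against 0.584% outside. The 206.0 kb under both marks in PiCs came to 34.2% from sequence with both in ESCs, 29.5% from H3K36me3 alone, 19.8% from H3K9me3 alone and 16.5% from sequence with neither.

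**Figure D5:**
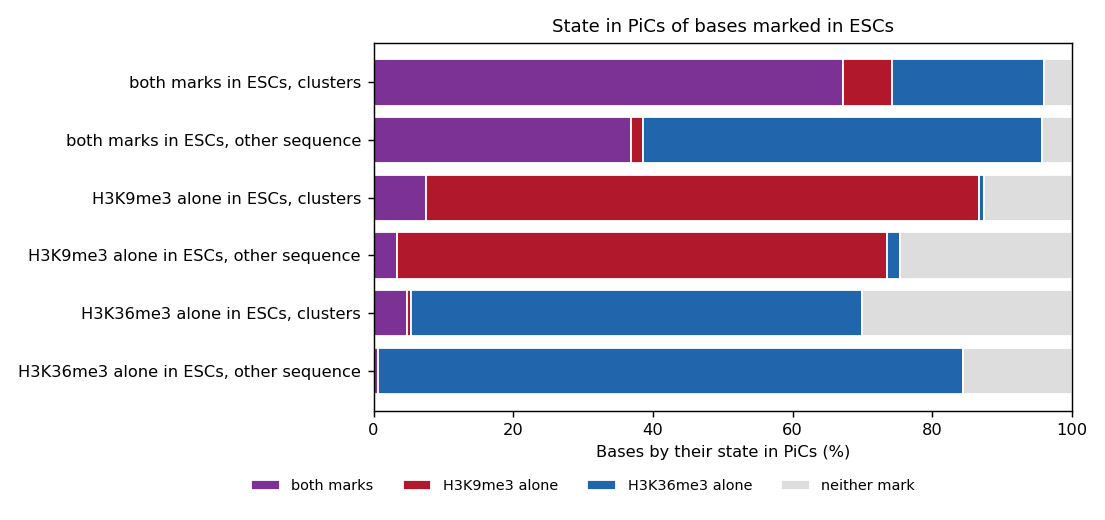
State in PiCs of bases that carried both marks, H3K9me3 alone or H3K36me3 alone in ESCs, as percent of the bases of that ESC state, for the 5 clusters and for the other sequence of their chromosomes. Both marks were found again over 67.2% of the bases in the clusters and 36.8% outside.

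H3K9me3 islands of 1 condition met H3K36me3 at shares close to those of shared islands in the pooled clusters, with a wide interval in ESCs. Of the ESC H3K9me3 islands without a PiC counterpart 4 of 22 (18.2%, 5.19 to 40.3) touched H3K36me3, and of the shared ones 32 of 174 (18.4%, 12.9 to 25.0). Outside the clusters these shares were 19.7% (17.3 to 22.4) and 4.95% (4.27 to 5.70). For PiC H3K9me3 islands the shares were 20 of 106 (18.9%, 11.9 to 27.6) and 37 of 166 (22.3%, 16.2 to 29.4), against 4.79% (4.03 to 5.64) and 7.93% (7.06 to 8.87) outside. The shared ESC H3K9me3 islands of the clusters therefore differed from those outside beyond counting error, while for the islands of ESCs alone the interval includes the share outside. On chromosome 4 15 of 33 shared ESC islands and 1 of 7 of ESCs alone touched H3K36me3, and for PiCs 14 of 30 and 6 of 20. On chromosome 13 the order was the other way, with 8 of 44 and 1 of 4 for ESCs and 11 of 41 and 6 of 17 for PiCs. For H3K36me3 the classes were less alike in ESCs, where 1 of 20 islands without a PiC counterpart (5.00%, 0.127 to 24.9) and 30 of 107 shared ones (28.0%, 19.8 to 37.5) touched H3K9me3. In PiCs 12 of 34 (35.3%, 19.7 to 53.5) and 35 of 115 (30.4%, 22.2 to 39.7) did. Outside the clusters the H3K36me3 shares had the same order in ESCs, 1.99% without a PiC counterpart and 10.2% for shared islands. In PiCs they were 17.3% and 6.2% outside.

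The end of the chromosome 17 span, from 23.75 to 24 Mb, went against the rest of that cluster. H3K9me3 covered 5.92% of it in ESCs, with 4 islands, and 0.8% in PiCs, with 1 island. H3K36me3 covered 17.7% in ESCs and 28.9% in PiCs. In 12 of the 14 pieces of 250 kb of this cluster PiCs had more H3K9me3 than ESCs. Over all 5 clusters PiCs had more in 46 of 71 such pieces, less in 8 and the same in 17, most of them without an H3K9me3 island in either list.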

How the data were processed

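Each of the 4 deposited lists gives chromosome, start, end and a whole number per island, with no header. Per the submitters' processing notes, islands were called with SICER on mm9. Its version and thresholds, the aligner, the treatment of duplicates and the use of the input were not given in the sources used here. The deposited whole number was taken to be the unscaled tag count of the island; reads of libraries made with PCR are not independent molecules. Starts and ends lie on a 200 bp grid, and positions are given 1-based. Islands were assigned to clusters by midpoint; the other sequence of a chromosome runs from its first to its last base under any island, less the cluster. Overlap means 1 bp or more. Coverage sums the widths of member islands, and bases under both marks or by state were counted in 200 bp windows. Pieces inside a cluster were 250 kb. Shares carry exact (Clopper-Pearson) intervals, number ratios an interval derived from the PiC part of both lists, and islands per Mb an exact Poisson interval. Coverage and length ratios carry the interval of the matching island count, scaled to the ratio, which leaves out the spread of widths. All cover counting error only. The smallest gap between islands was 800 bp for H3K9me3 and 1200 bp for H3K36me3, so widths are not compared between marks. The regions named are, per cluster, the widest island of each list, those with most tags, the widest stretch under both marks, the widest island with none of its mark within 10 kb in the other condition, and the longest stretch without islands; the text gives a selection of them. The 250 kb pieces and single islands within them were chosen after their values were seen. Clusters and rules were chosen with earlier results of these data known. Python 3.11.15, numpy 2.4.6, pandas 2.3.3 and scipy 1.17.1 were used. Counting of overlaps was tested on simulated data. The input library was not analysed here. No sequence is printed, since no mm9 genome was used.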

Additional observations from a re-analysis of the deposited data

How the results depend on the processing

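No paired analysis was possible because a single library stands for every mark and condition. In all 14 alternatives that bear on these shares H3K9me3 islands of both conditions touched H3K36me3 more often in the clusters than outside, with the interval above the level outside, and ESC H3K9me3 islands were shared more often, with the interval above in 13 (not with the 50% of each list that had the most tags). The interval of shared PiC H3K9me3 islands was above in 5 of the 14. That of shared H3K36me3 islands was below the level outside in 5 for ESCs and in 1 for PiCs. Of 208 alternative values of the 16 pooled results, 174 stayed within the counting interval of the reported value and 34 did not. Leaving out the chromosome 2 cluster put H3K36me3 coverage over the rest at 0.964 in ESCs and 0.860 in PiCs; leaving out that of chromosome 13 put it at 0.645 in ESCs, and H3K9me3 coverage over the rest at 2.12 and 2.46. Without the chromosome 7 cluster the latter was 1.48 and 1.58, PiC H3K9me3 bases under H3K36me3 were 24.8%, and PiC H3K9me3 islands touching H3K36me3 were 27.1%. Over all 5 clusters 16.1% of H3K9me3 bases were under H3K36me3 in ESCs and 17.2% in PiCs, against 8.56% and 6.35% outside. Without that of chromosome 4 the bases under H3K36me3 were 9.94% in ESCs (5.98 to 16.1) and 11.7% in PiCs (7.8 to 16.7), and ESC islands touching 12.8%. With those 50%, H3K9me3 coverage over the rest was 2.14 and 2.17, H3K36me3 coverage 0.554 and 0.559, bases under H3K36me3 11.2% and 12.4%, islands touching 11.7% and 12.7%, and PiC H3K36me3 islands shared 62.3%. With lists of equal size the number ratios were 1.04 (H3K9me3) and 0.748 (H3K36me3), the shared ESC and PiC islands 78.1% and 70.4% for H3K9me3 and 67.7% and 88.4% for H3K36me3. Outside the clusters these shares were 68.2% and 66.2%, and 81.3% and 89.8%. A reciprocal overlap of 50% gave 63.3% and 45.6% shared for H3K9me3, 63.0% and 53.7% for H3K36me3, and 3.57% and 9.56% touching. The levels outside were 52.1% and 38.1%, 70.8% and 53.3%, and 0.940% and 2.54%. Leaving out stretches of 100 kb without islands, added after the data had been seen, gave PiC H3K9me3 coverage of 1.69 times the rest over 5 clusters and turned the chromosome 2 value from 0.488 to 1.29 (ESCs 0.720 to 1.91). The causes were not tested. Of 636 alternative values for single clusters, 585 stayed within that interval. Small numbers of islands limit the chromosome 2 cluster most.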

Other observations

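The distance between the marks differed among the clusters. From an H3K9me3 island of the chromosome 4 cluster the nearest H3K36me3 island of the same condition lay at a median of 4.2 kb in ESCs and 1.7 kb in PiCs, against 184.4 and 220.8 kb on the rest of that chromosome. On chromosome 13 the medians were 22.7 and 14.9 kb against 213.0 and 188.2 kb, and on chromosome 17 72.1 and 80.6 kb against 120.4 and 223.8 kb. In the chromosome 7 cluster they were 147.6 and 171.2 kb, against 146.4 and 208.0 kb elsewhere on the chromosome. On chromosome 2, with 12 and 14 H3K9me3 islands, the medians were 21.3 and 144.0 kb, against 149.8 and 244.5 kb.

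The few islands of the chromosome 2 cluster included 1 site with both marks in both conditions, from 177099001 to 177100600. The ESC H3K9me3 island there had 48.8 tags per kb, the highest of the 12 in that cluster, and the PiC island from 177098401 to 177100600 had 53.2. The H3K36me3 island over it was the widest of the cluster in each list, with 84.8 tags per kb in the ESC list and 60.4 in the PiC list.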
